A study of Caenorhabditis elegans with 8 samples.

Results

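The genes described here encode parts of SCF and other cullin ubiquitin ligases, and were chosen by name: cul-1, cul-4, cul-5, cul-6, skr-1, skr-2, lin-23, sel-10, prom-1 and ddb-1. All 10 were among the 16031 genes of the authors' deposited table, and all 10 symbols match the WormBase names of their gene IDs. The study sequenced RNA from 8 libraries of Caenorhabditis elegans females, young adults collected about 48 h after feeding at 25 °C. Animals of the OMA-1 strain had the genotype fog-1(q253ts); oma-1(zu405te33) with the integrated transgene tnIs17. It puts oma-1 with s, tev and gfp tags under the oma-1 promoter (oma-1p) and also carries unc-119(+). The LIN-41 strain joined fog-1(q253ts) to the allele lin-41(tn1541), in which gfp, tev and s tags stand at the gene itself. The fog-1 mutation, shared by all groups, is temperature-sensitive and turns the germ line female at the culture temperature. From each strain came 2 immunoprecipitates (IPs), made with a mixture of monoclonal antibodies and not depleted of ribosomal RNA, 1 lysate depleted of it and 1 undepleted lysate. Many plates of whole animals were pooled for a lysate, so the lysates hold somatic as well as germline RNA. No library among the 8 carried a label for an untagged or mock IP, so binding and nonspecific carry-over cannot be told apart.

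Cullin ligases attach ubiquitin to proteins and so mark them for the proteasome. In an SCF ligase the cullin CUL-1 is the scaffold, a Skp1-related SKR protein is the adaptor, an F-box protein chooses the substrate and a RING protein brings the ubiquitin-loaded enzyme. In a CUL-4 ligase DDB-1 takes the place of the adaptor and WD-repeat proteins choose the substrate. In worm oocytes the F-box protein SEL-10 is known to direct the degradation of LIN-41 when meiotic maturation begins, so here the mRNA of a ligase subunit is measured in complexes of that ligase's own substrate.

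The authors' deposited table gives each gene a level in FPKM, which is per transcript length, pooled over the 2 libraries of a kind, and a log2 ratio of each pair of IPs to the depleted lysates, those of both strains pooled as 1 denominator. Pooled values have no SD, and the counts per library are unknown; the deposited baseMean, a scaled mean read count over all samples, stands for depth. It was 18253 for sel-10, 4111 for prom-1, between 709 and 1727 for the other members and 25.8 for cul-6, the only member under 100. Whether separate cultures lie behind the libraries is not stated, so the deposited p-values cover variation among these libraries only, and it may be technical. The deposited test looked only for enrichment. Lower values and the difference between the IPs were tested approximately, with a standard error (SE) implied by the deposited adjusted p-values. A ratio below 0 implies no SE of its own: sel-10 and ddb-1 with OMA-1 and skr-2 with LIN-41 took that of the other IP (for sel-10 because the OMA-1 p was stored as 0), and cul-1, cul-4, cul-5, cul-6 and skr-1 a high percentile of genes of like depth. Where a log2 ratio of 0 lies rests on the authors' scaling. With FPKM columns brought to equal totals, mitochondrial genes left out of the totals, all OMA-1 ratios shift by -1.33 on the log2 scale. All LIN-41 ratios shift by -0.95, and the median of all genes tested moves with each shift from its deposited -0.09 and -0.04. Positions among all genes, which such a shift cannot change, are therefore given as percentiles over the 6768 genes with a baseMean of at least 100. In bulk RNA, fewer cells that hold an mRNA and less of it per cell cannot be told apart.

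As a check of the tissue, all 6 oocyte markers were present at 217 to 579 FPKM in the lysates, while the 3 sperm markers analysed lay between 0.08 and 0.13 FPKM there. The 6 oocyte markers were also called higher in both IPs (the authors' deposited table). That is no check of the tissue, because the IPs were made to enrich bound mRNAs. Of 5 intestine markers 4 were lower with OMA-1 and 4 with LIN-41 by the approximate test, and of 5 body wall muscle markers 2 (OMA-1) and 4 (LIN-41) were lower. The muscle marker act-4 instead had a log2 ratio of 3.70 with OMA-1 and was called higher (the authors' deposited table). The summed FPKM of the oocyte markers was 15537 in OMA-1 IPs, 49405 in LIN-41 IPs and 2197 in lysates, that of the intestine markers 787, 1086 and 3566 in the same order, and that of the muscle markers 3532, 365 and 701. Single genes carry some of these sums: spn-4 gave 43194 of the oocyte FPKM in LIN-41 IPs, and act-4 gave 3151 of the muscle FPKM in OMA-1 IPs (the authors' deposited table). The OMA-1 ratios of spn-4 and rme-2 turned negative under both scalings, and that of egg-1 did with quantile normalization. The part of these markers in the ratios below was not tested.

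The F-box gene sel-10 had the most abundant mRNA of the 10 in both IPs, and the 4 member cullins were at most at 28.54 FPKM in an IP, as deposited by the authors. Calls of higher with OMA-1 went to sel-10, prom-1, skr-2 and lin-23, 4 of the 10 genes, in the authors' deposited table, against 28.4% of all genes tested. By the approximate test 5 were lower with OMA-1 (ddb-1, cul-4, cul-1, cul-5 and skr-1), against 18.7% of all genes, and cul-6 passed neither test. With LIN-41 the authors' deposited table called prom-1, sel-10, lin-23 and ddb-1 higher, 4 members, against 27.2% of all genes. The approximate test gave 2 members lower with LIN-41 (skr-2 and cul-1), against 14% of all genes. Over the 10 members the median log2 ratio was -0.41 with OMA-1 and -0.11 with LIN-41. Equal totals gave 2 members higher (14.1% of all genes) and 7 lower (51.7%) with OMA-1, and 2 higher (12.8%) and 6 lower (46.2%) with LIN-41. After quantile normalization 2 were higher (23.6%) and 6 lower (25.7%) with OMA-1, and 3 higher (22.3%) and 6 lower (21.1%) with LIN-41. These comparisons share the lysates, so their counts are not independent of each other.

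**Figure D1:**
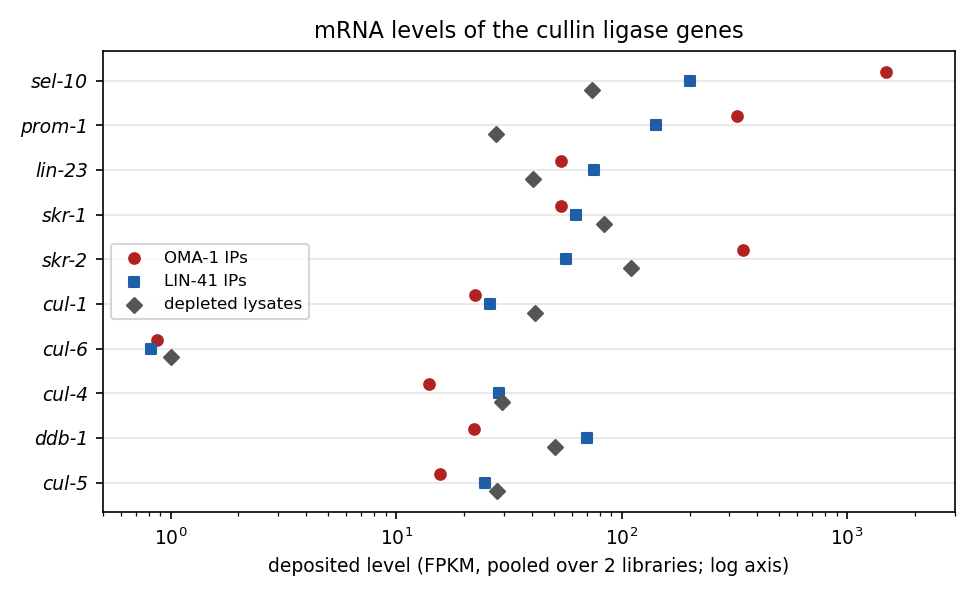
Deposited FPKM of the 10 genes (log axis) in the OMA-1 IPs (red circles), LIN-41 IPs (blue squares) and depleted lysates (grey diamonds), each point pooled by the authors over 2 libraries. The sel-10 level was 1487 FPKM in OMA-1 IPs, 202 in LIN-41 IPs and 74.1 in lysates, and the 4 cullins plotted lay below 30 FPKM in both IPs.

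The F-box gene sel-10, whose protein is the worm counterpart of Fbw7 and also limits Notch signalling, had the highest level of the 10 in both IPs. The authors' deposited table gave sel-10 (WBGene00004767, chromosome V, 13819361 to 13822980 on the plus strand in WBcel235) 1487 FPKM in OMA-1 IPs, 202 FPKM in LIN-41 IPs and 74.1 FPKM in lysates. Its mRNA was thus high in the OMA-1 IPs, intermediate in the LIN-41 IPs and lowest in the lysates. Its log2 ratio in the authors' deposited table was 4.32 with OMA-1, a 20.0-fold enrichment with an adjusted p stored as 0, and 1.44 with LIN-41, a 2.72-fold enrichment with an adjusted p of 2.34e-59. It stood at percentile 95.6 of the 6768 genes for OMA-1 and at percentile 77.3 for LIN-41. Set directly against LIN-41, the OMA-1 IPs held more by 2.88 ± 0.124 (approximate SE, log2 scale), with an adjusted p of 8.6e-116 by the approximate test. All 3 values were also positive with equal totals, at 2.99, 0.49 and a difference of 2.50, and quantile normalization gave 2.75, 0.501 and 2.25.

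PROM-1, an F-box protein that promotes the pairing of homologous chromosomes in meiosis, had an mRNA that was high in both IPs. For prom-1 (WBGene00009173, chromosome I, 9287443 to 9289770, plus strand) the authors' deposited table gave 324 FPKM in OMA-1 IPs, 141 FPKM in LIN-41 IPs and 27.9 FPKM in lysates. Both IPs were above the lysates, the OMA-1 IPs more so. Its log2 ratio in the authors' deposited table was 3.53 with OMA-1 (adjusted p 1.51e-199), as against 2.34 with LIN-41 (adjusted p 1.55e-86), the highest LIN-41 ratio of the 10. Its percentiles among the 6768 genes were 90.8 and 90.5. The OMA-1 minus LIN-41 difference of 1.19 ± 0.166 passed the approximate test (adjusted p 5.83e-12), but with quantile normalization it was 0.37 and did not. Annotated exons of prom-1 share 52 bases, 2.74% of its exonic length, with phac-1 on the opposite strand; no other member overlaps an annotated exon of another gene.

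The mRNA of lin-23, which encodes the counterpart of beta-TrCP and is needed for cells to leave the cell cycle, was only slightly above the lysates. The authors' deposited table gave lin-23 (WBGene00003009, chromosome II, 6371303 to 6374776, plus strand) 53.6 FPKM in OMA-1 IPs, 75.2 FPKM in LIN-41 IPs and 40.4 FPKM in lysates. Here the LIN-41 IPs were highest. Both lin-23 ratios were called in the authors' deposited table, at log2 values of 0.41 with OMA-1 (adjusted p 0.000194) and 0.89 with LIN-41 (adjusted p 1.75e-17). These calls depend on the scaling: the ratios became -0.93 and -0.06 when totals were made equal, and -0.36 and 0.32 after quantile normalization. At percentile 49.1 for OMA-1 lin-23 lay in the middle of the 6768 genes, and at percentile 65.4 for LIN-41. For OMA-1 minus LIN-41 it had -0.49 ± 0.146 (adjusted p 0.00338 by the approximate test), and this difference was negative under both scalings too.

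**Figure D2:**
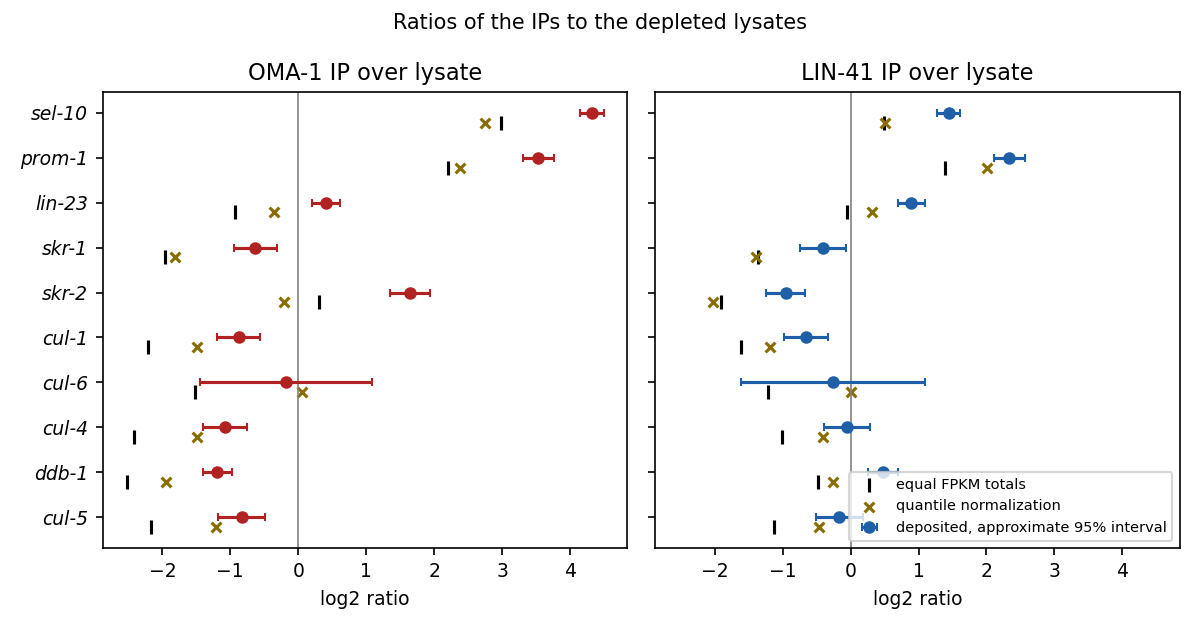
Log2 ratios of the OMA-1 IPs (left) and LIN-41 IPs (right) to the depleted lysates for the 10 genes, with approximate 95% intervals from the implied SEs; black ticks and brown crosses show the ratio after equal FPKM totals and after quantile normalization. Ratios of sel-10 and prom-1 stayed above 0 under both scalings, while lin-23 and ddb-1 changed sign in at least 1 IP, skr-2 did so with OMA-1, and cul-6, near 0 as deposited, did so in both with quantile normalization.

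The Skp1-related adaptors skr-1 and skr-2 are neighbours on chromosome I and encode closely similar proteins, but their mRNAs differed in the IPs. The skr-2 gene (WBGene00004808, 9469654 to 9470637, plus strand) had 345 FPKM in OMA-1 IPs, 56.7 FPKM in LIN-41 IPs and 110.1 FPKM in lysates in the authors' deposited table. It was above the lysates with OMA-1 and below them with LIN-41. For skr-1 (WBGene00004807, 9471550 to 9472641, plus strand) the authors' deposited table gave 53.8 FPKM in OMA-1 IPs, 63.0 FPKM in LIN-41 IPs and 83.4 FPKM in lysates, so that both IPs were below the lysates. In log2 terms skr-2 stood at 1.64 with OMA-1 (adjusted p 6.7e-28, the authors' deposited table) and at -0.95 with LIN-41, which was lower by the approximate test (adjusted p 1.79e-09). With quantile normalization its OMA-1 ratio was -0.21, and with equal totals it was 0.31 and no longer called. The difference of 2.6 ± 0.21 between the IPs (adjusted p 8.16e-34) stayed positive under both scalings, at 2.22 (equal totals) and 1.81 (quantile normalization). The skr-1 log2 ratio was -0.63 with OMA-1, lower by the approximate test (adjusted p 0.000539), and -0.41 with LIN-41 (adjusted p 0.0591). Its OMA-1 minus LIN-41 difference was -0.22, with an approximate 95% interval of -0.69 to 0.24. Among the 6768 genes skr-2 stood at percentile 70.5 for OMA-1 and 11.5 for LIN-41, and skr-1 at 25.1 and 24.5. Genes this similar can share reads, and 912 bases separate them; the authors' own flag for low-quality or multimapping reads, set for 69 genes of the table, was set for neither, and for 0 of the 10 members.

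The mRNA of cul-1, which encodes the SCF scaffold, was lower in both IPs than in the lysates. For cul-1 (WBGene00000836, chromosome III, 10471237 to 10475129, plus strand) the authors' deposited table gave 22.4 FPKM in OMA-1 IPs, 26.2 FPKM in LIN-41 IPs and 41.2 FPKM in lysates. The IPs were close to each other. Its log2 ratio in the authors' deposited table was -0.88 (OMA-1) and -0.65 (LIN-41), both lower by the approximate test (adjusted p 4.71e-07 and 0.000597). The OMA-1 minus LIN-41 difference of -0.22 had an interval of -0.68 to 0.23 and did not pass (adjusted p 0.593), although with equal totals it was -0.61 and did. The mRNA of cul-6, which encodes a cullin known from the worm's response to intracellular infection, was scarcely present. The authors' deposited table gave cul-6 (WBGene00000841, chromosome IV, 12586485 to 12590451, minus strand) 0.87 FPKM in OMA-1 IPs, 0.82 FPKM in LIN-41 IPs and 1.00 FPKM in lysates. As deposited, no change was detectable for it at this depth, the approximate SE of its OMA-1 minus LIN-41 difference being 0.945; at equal totals its OMA-1 ratio of -1.51 passed as lower.

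The scale-free view of the SCF is the ratio of subunit mRNAs within a pool, which no scaling by a constant between pools can change. From the authors' deposited table, sel-10 mRNA was 66.4 times as abundant as cul-1 mRNA in OMA-1 IPs, 7.7 times in LIN-41 IPs and 1.8 times in lysates. Likewise from the authors' deposited table, prom-1 stood at 14.5, 5.4 and 0.676 times the cul-1 level in OMA-1 IPs, LIN-41 IPs and lysates. For lin-23 these values from the authors' deposited table were 2.39, 2.87 and 0.981. All 3 F-box mRNAs were thus more abundant relative to their scaffold in both IPs than in the lysates. The adaptor skr-1 kept nearly the same proportion to cul-1, at 2.40 in OMA-1 IPs, 2.40 in LIN-41 IPs and 2.02 in lysates, from the authors' deposited table. The ratio of skr-2 to skr-1 in the authors' deposited table was 6.42 in OMA-1 IPs, 0.901 in LIN-41 IPs and 1.32 in lysates. These ratios of pooled values have no error and were not tested.

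**Figure D3:**
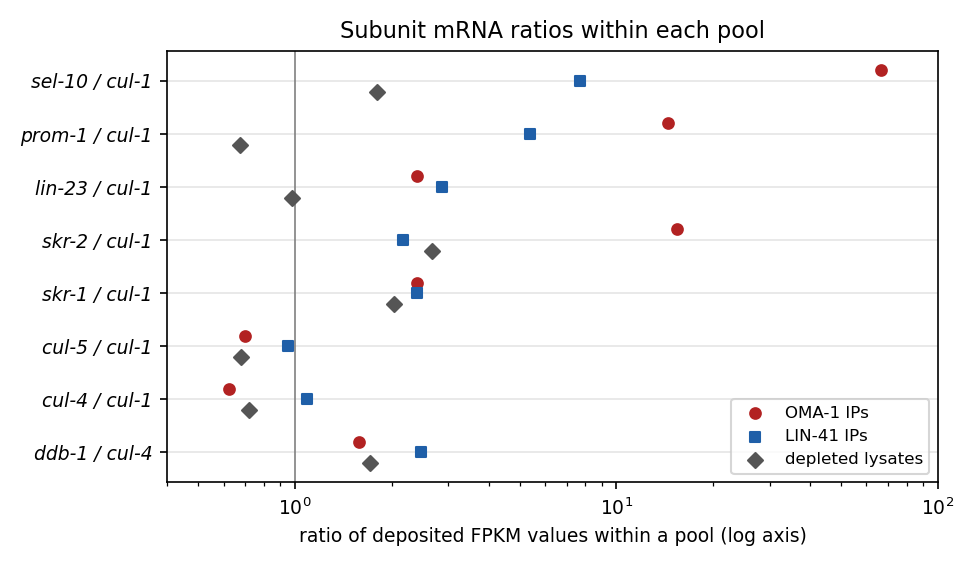
Ratio of the deposited FPKM of the first gene to that of the second (log axis) within the OMA-1 IPs (red circles), LIN-41 IPs (blue squares) and depleted lysates (grey diamonds). The F-box to cul-1 ratios were higher in both IPs than in the lysates, up to 66.4 for sel-10 in OMA-1 IPs, and skr-1 to cul-1 stayed between 2.02 and 2.40.

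The CUL-4 scaffold and its adaptor DDB-1, with the receptor CDT-2, keep the replication licensing factor CDT-1 low and so prevent re-replication. The mRNAs of cul-4 and ddb-1 were low with OMA-1 and, as deposited, not with LIN-41. The authors' deposited table gave cul-4 (WBGene00000839, chromosome II, 7302101 to 7305758, plus strand) 13.98 FPKM in OMA-1 IPs, 28.5 FPKM in LIN-41 IPs and 29.6 FPKM in lysates. The LIN-41 IPs thus held about the lysate level and the OMA-1 IPs less. For ddb-1 (WBGene00010890, chromosome IV, 12114810 to 12121165, minus strand) the authors' deposited table gave 22.1 FPKM in OMA-1 IPs, 70.5 FPKM in LIN-41 IPs and 50.5 FPKM in lysates. The cul-4 log2 ratio in the authors' deposited table was -1.08 with OMA-1, lower by the approximate test (adjusted p 6.87e-10), and -0.05 with LIN-41 (adjusted p 0.851 for a lower value). With LIN-41 cul-4 passed as lower under both scalings, at -1.005 with equal totals and -0.41 by quantile normalization, and so did cul-5 and skr-1. For ddb-1 the authors' deposited table gave -1.19 with OMA-1, lower by the approximate test (adjusted p 5.57e-26), and 0.48 with LIN-41, which it called higher (adjusted p 3.15e-05). That LIN-41 call was reversed by both scalings, ddb-1 passing as lower at -0.47 (equal totals) and -0.26 (quantile normalization). At equal totals, however, the median LIN-41 ratio of all genes was -0.996, and 46.2% of all genes passed as lower. Among the 6768 genes ddb-1 stood at percentile 12.7 for OMA-1 and 53.7 for LIN-41, and cul-4 at 14.5 and 36.6. Between the IPs, OMA-1 minus LIN-41 came to -1.03 ± 0.238 for cul-4 (adjusted p 8.52e-05) and -1.67 ± 0.155 for ddb-1 (adjusted p 9.33e-26), and both were also negative under both scalings.

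The mRNA of cul-5, whose protein pairs with the RING protein RBX-2 rather than RBX-1, resembled that of cul-4 in its values. The authors' deposited table gave cul-5 (WBGene00000840, chromosome V, 10179535 to 10183154, plus strand) 15.7 FPKM in OMA-1 IPs, 24.8 FPKM in LIN-41 IPs and 27.9 FPKM in lysates. Its log2 ratio in the authors' deposited table was -0.83 with OMA-1, lower by the approximate test (adjusted p 1.25e-05), and -0.17 with LIN-41 (adjusted p 0.556 for a lower value). The OMA-1 minus LIN-41 difference of -0.66 ± 0.249 passed the approximate test at an adjusted p of 0.0261, but not at a threshold of 0.01.

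Set directly against each other, the OMA-1 IPs held more sel-10, skr-2 and prom-1 mRNA and the LIN-41 IPs more ddb-1, cul-4, cul-5 and lin-23 mRNA. By the approximate test 3 of the 10 members were higher with OMA-1, against 19.7% of the 13955 genes with both ratios, and 4 were higher with LIN-41, against 12.3%. The lysate cancels in this difference, but each kind of IP came from its own strain. A difference in mRNA level between the strains therefore cannot be told apart from one between the IPs. For cul-1, skr-1 and cul-6 the difference did not pass, which does not show that the IPs hold equal amounts. At equal totals cul-1 and skr-1, both at -0.61, passed as well, so that 3 members were higher with OMA-1 (14.8% of all genes) and 6 with LIN-41 (20.5%). After quantile normalization 2 were higher with OMA-1 (15.4%) and 4 with LIN-41 (15.5%). At percentile 97.0 of the 6768 genes sel-10 had the difference farthest towards OMA-1 of the 10, and ddb-1 at percentile 4.68 the one farthest towards LIN-41.

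**Figure D4:**
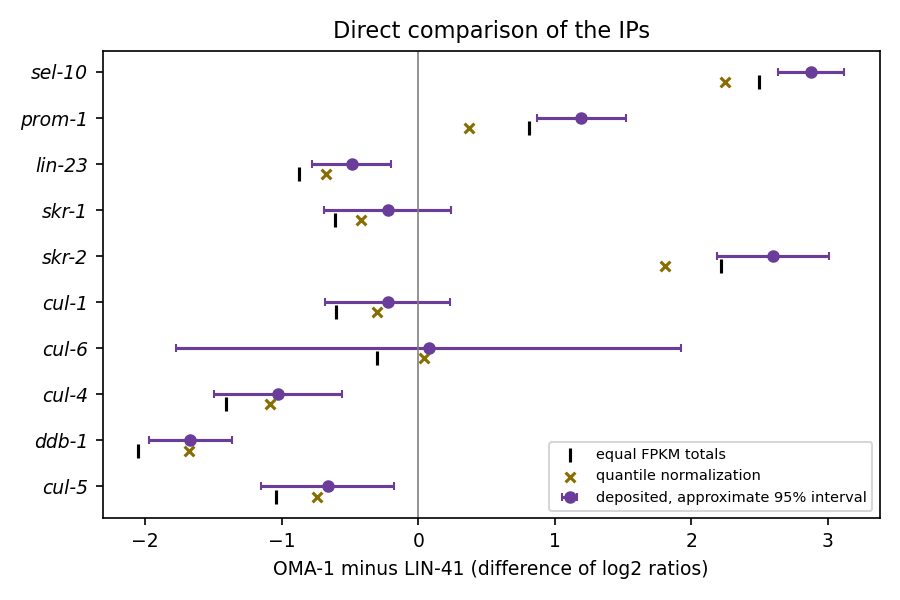
OMA-1 minus LIN-41 difference of the log2 ratios for the 10 genes, with approximate 95% intervals; black ticks and brown crosses show the value after equal FPKM totals and after quantile normalization. Differences of sel-10, skr-2 and prom-1 lay above 0 and those of ddb-1, cul-4, cul-5 and lin-23 below 0 under all 3 scalings, and the interval of cul-6 spanned -1.77 to 1.93.

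An earlier study's OMA-1 IP, set against lysate by the authors, gave a further reading of the OMA-1 ratios. Its log2 ratio in the authors' deposited table was 4.54 for sel-10, 3.70 for prom-1, 1.91 for skr-2 and 0.52 for lin-23. For the members that were low here the authors' deposited table gave -0.49 for skr-1, -1.03 for cul-5, -1.15 for cul-1, -1.22 for cul-4 and -1.75 for ddb-1. Only cul-6, at 0.28, had the other sign. The title of that sheet names the depleted lysates as the denominator, so the shared lysates may carry part of this likeness, which was not tested.

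Whether the members differ between germ lines that make sperm and those that make oocytes was taken from the deposited comparison of dissected spermatogenic fem-3(q96gf) gonads over oogenic fog-2(q71) gonads of another study. Called higher in spermatogenic gonads in the authors' deposited table were cul-1, skr-2, skr-1 and cul-4, 4 members against 27.6% of all genes tested, with log2 ratios of 0.33 to 0.69. The authors' deposited table called 2 higher in oogenic gonads, cul-5 at -1.19 (adjusted p 5.97e-15) and ddb-1 at -0.29 (adjusted p 0.0064), against 28.2% of all genes. For the F-box genes sel-10 (0.11), prom-1 (-0.20) and lin-23 (-0.26) the authors' deposited table had adjusted p-values between 0.132 and 0.471.

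Annotated 3′ UTRs, the part of an mRNA where regulators of oocyte translation often bind, differed in length among the members in the Ensembl annotation of WBcel235. The longest annotated 3′ UTR had 864 bases in lin-23, 602 in sel-10 and 369 in prom-1, the F-box genes, and 392 in ddb-1. It had 318 bases in skr-1 and 183 in skr-2, and in the cullins 245 (cul-1), 228 (cul-4), 261 (cul-5) and 68 (cul-6). The median over 13549 protein-coding genes tested was 150 bases. A link between this length and the ratios was not tested.

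Most cullin and RING genes were low with OMA-1, among them the members cul-1, cul-4 and cul-5 but not cul-6. Of the 8 on this list the authors' deposited table called rbx-2 higher with both IPs, at 0.69 with OMA-1 and 0.89 with LIN-41, while 6 were lower with OMA-1 and 3 with LIN-41 by the approximate test (medians -0.94 and -0.22). With equal totals rbx-2 turned to -0.64 and -0.06, but quantile normalization left it positive at 0.39 and 0.66. Among these, cul-2 stood in the authors' deposited table at -1.47 with OMA-1 and -0.53 with LIN-41, cul-3 at -1.17 and -0.62, and rbx-1, the RING subunit of SCF, at -0.996 and -0.19. The difference between the IPs was negative for cul-2, cul-3, rbx-1, cul-4 and cul-5 by the approximate test, and the other 3 genes passed in neither direction. Of all genes 12.3% had a difference that passed as higher with LIN-41. Of 13 genes for neddylation, CAND1 and the COP9 signalosome, which switch cullins on and off, 10 were lower with OMA-1 and 9 with LIN-41 by the approximate test (medians -0.87 and -0.67). Among them was cand-1, at -0.98 and -1.08 in the authors' deposited table, while cif-1 was called higher with OMA-1 (0.47, and -0.87 with equal totals).

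The CUL-4 list had a median OMA-1 minus LIN-41 difference of -1.67, the farthest from 0 of the 6 lists. The authors' deposited table had calls of higher for all 5 of its genes with LIN-41 (median 1.90) and for 2 with OMA-1, and the approximate test put the other 3 lower with OMA-1 (median -0.53). The authors' deposited table gave cdt-2, the substrate receptor, -0.53 (OMA-1) and 2.55 (LIN-41), and cdt-1, its substrate, 0.39 and 1.90. For dcaf-1, another receptor, the authors' deposited table gave -1.46 and 0.23. Under both scalings the LIN-41 ratios of dcaf-1 and ddb-1 were negative, as was the OMA-1 ratio of cdt-1. By contrast wdr-23, whose protein directs degradation of the stress regulator SKN-1, had ratios of 5.41 (OMA-1) and 2.61 (LIN-41) in the authors' deposited table. By the approximate test the difference between the IPs was -3.08 for cdt-2, -1.70 for dcaf-1 and -1.51 for cdt-1, and 2.79 for wdr-23.

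OMA-1 ratios ran from -0.91 to 4.32 among named F-box genes and from -1.47 to 0.69 among cullin and RING genes, as deposited by the authors. Of 9 named F-box genes in the table the authors' deposited values called 7 higher with OMA-1 and 5 with LIN-41 (medians 0.91 and 0.89, against -0.09 and -0.04 for all genes). The approximate test put 1 lower in OMA-1 IPs and 2 in LIN-41 IPs. These medians became -0.43 and -0.06 at equal totals, and -0.28 and 0.32 after quantile normalization. Of 20 Skp1-related genes 6 (OMA-1) and 4 (LIN-41) had calls of higher in the authors' deposited table, against 28.4% and 27.2% of all genes. The LIN-41 calls include a pseudogene with a baseMean of 31.7. By the approximate test 6 and 7 of the Skp1-related genes were lower (medians -0.82 and -0.78). Some of these lower genes had a baseMean under 100. Of the Skp1-related genes skr-16 was highest with LIN-41, at 2.46 with OMA-1 and 3.70 with LIN-41 in the authors' deposited table. Of 11 CUL-2 and CUL-3 adaptor genes 5 were called higher in each IP and 3 were lower (medians 0.18 and 0.26). They ran from zif-1 at 5.25 and 5.27 in the authors' deposited table to elc-1, the elongin C gene, at -1.55 and -1.84, and kel-8 at -1.69 and -0.64. At equal totals the medians of this list were -1.15 and -0.70, against -1.42 and -0.996 for all genes. Quantile normalization gave -0.89 and -0.15, against -0.13 and -0.08 for all genes.

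**Figure D5:**
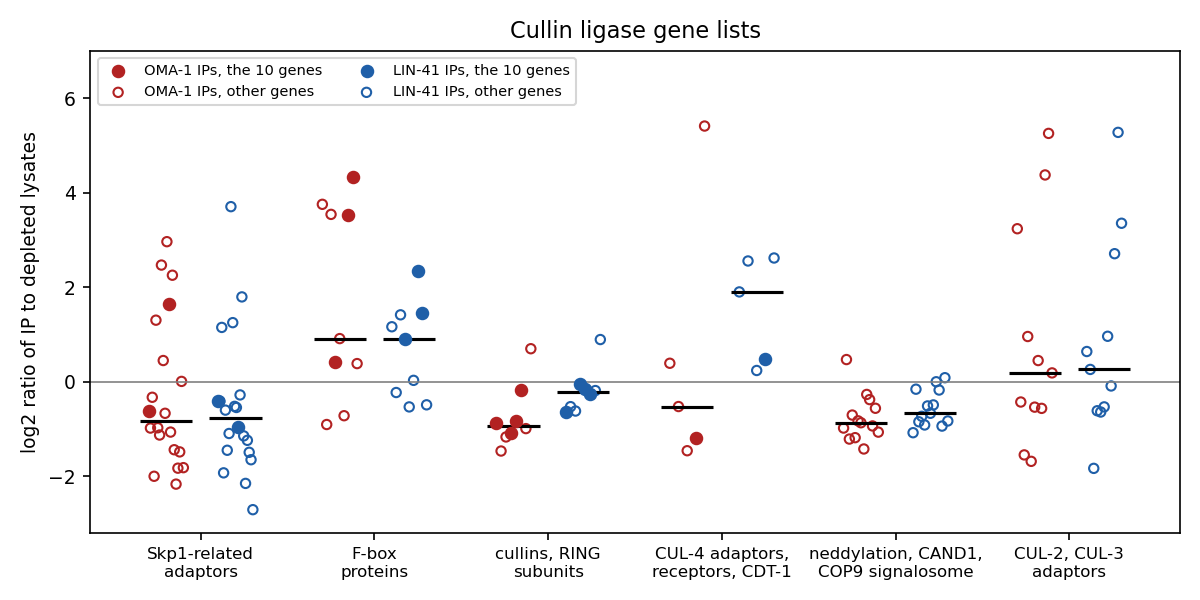
Log2 ratios to the depleted lysates in the OMA-1 IPs (red, left in each column) and LIN-41 IPs (blue, right) for genes of 6 cullin ligase lists; filled points are the 10 genes described, open points other list genes, and black bars medians. With OMA-1 the cullin and RING median was -0.94 and the F-box median 0.91, and with LIN-41 the CUL-4 list median was 1.90.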

How the data were processed

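The data were 1 table of 16031 genes. Trimmomatic 0.32, STAR 2.4.2a, SAMtools 1.0, DESeq2 1.12.3 and the build WBcel235 are named in the submitters' processing notes, with no role; the sources used here name no counter and no strand setting. The authors deposited, per the file headers, log2 ratios of the IPs to the ribosomally depleted lysates, Benjamini-Hochberg adjusted p-values, FPKM values pooled over libraries and baseMean, a scaled mean signal in reads. Another 4 columns, with levels measured in other studies, were left out.

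All 8208 genes tested with an OMA-1 ratio at or below 0, and all 7187 with LIN-41, had the largest adjusted p possible. The deposited values were therefore read as from a one-sided Wald test, and raw p-values were recovered on that reading. The largest recovered was 0.462 (OMA-1) or 0.47 (LIN-41), which cannot check the reading because the recovery assumed it. The log2 ratio divided by its z gave the implied SE. The logarithms of these SEs correlated with r = 0.996 between the comparisons, across 2965 genes with a baseMean above 100. A member with no SE of its own took that of the other comparison (2 for OMA-1, 1 for LIN-41) or, failing that, the 95th percentile of the 201 genes closest in baseMean (5 for each). Lower values (one-sided) and differences (two-sided, root of the summed squared SEs) were tested with a normal approximation in SciPy 1.17.1, adjusted over all genes at 0.05, after tests on simulated data. The SE of a difference is too wide, since the lysate cancels, but only where the implied SEs hold. A borrowed SE could not be checked and may be too narrow. Strain names rise by 1 from sample to sample, so groups follow the source names.

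Members and lists were chosen with earlier results of these data known. The rule for names took all 10 members, all genes of the cullin and CUL-4 lists, and the 2 highest and 2 lowest other list genes per IP with a baseMean of at least 100. Coordinates come from Ensembl release 115. The gene skr-6 and the F-box gene pof-1 of the lists, and 4 sperm markers, were not analysed here.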

Additional observations from a re-analysis of the deposited data

How the results depend on the processing

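Only the scalings moved a count of members by more than 1.5 times. With equal FPKM totals 2 members were called higher with OMA-1 (4 as deposited), 2 higher with LIN-41 (4) and 6 lower with LIN-41 (2); with quantile normalization 2 were higher with OMA-1 and 6 lower with LIN-41. In both, the members called higher with OMA-1 were sel-10 and prom-1. Among called ratios, signs reversed for lin-23 with OMA-1 (-0.93 with equal totals, -0.36 with quantile normalization) and with LIN-41 (-0.059 with equal totals). They also reversed for ddb-1 with LIN-41 (-0.47 and -0.26) and for skr-2 with OMA-1 (-0.21 with quantile normalization). Uncalled values of cul-6 changed sign too, to 0.057 (OMA-1) and 0.013 (LIN-41) with quantile normalization, and to -0.30 for its difference with equal totals. The cause of these changes was not tested. A threshold of 0.01 lost the cul-5 difference. A baseMean minimum of 10 or 100, or SEs from the median trend on baseMean, added skr-1 as lower with LIN-41. A pseudocount of 1 FPKM reversed no value. No paired analysis was possible because the table holds no value for a single library, and for the same reason no library could be left out.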

Other observations

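Beyond the genes named by rule, other F-box and Skp1-related genes were named here after their values were seen, and not all had high ratios. The F-box genes dre-1 and fsn-1 had OMA-1 ratios of 3.75 and 3.54 in the authors' deposited table, and their LIN-41 values were 1.16 and 1.41. By the approximate test their OMA-1 minus LIN-41 differences were 2.59 ± 0.197 and 2.13 ± 0.153. The authors' deposited table called mec-15 (0.91) and skpt-1 (0.38) higher with OMA-1, and both were lower with LIN-41 by the approximate test, but their OMA-1 ratios were negative with equal totals and with quantile normalization.

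Among the Skp1-related genes skr-19 had 2.96 with OMA-1 and -0.55 with LIN-41 in the authors' deposited table, a difference of 3.51 ± 0.272. The values of skr-21 were 2.25 (OMA-1) and 1.79 (LIN-41) in the authors' deposited table, and their difference did not pass the approximate test (adjusted p 0.498). For skr-17 the authors' deposited table gave 0.44 (OMA-1) and 1.25 (LIN-41), the OMA-1 ratio being negative under both scalings. The deposited gonad ratio of skr-16, the gene highest with LIN-41 of this family, was -4.07 in the authors' deposited table, on the oogenic side.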
